A study of Homo sapiens with 2 samples.

Results

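The genes examined here are the nuclear genes for subunits of the mitochondrial respiratory chain and of ATP synthase. They were chosen by symbol alone, from probe sets that name 1 gene on the array: symbols that start with NDUFA, NDUFB, NDUFC, NDUFS or NDUFV for complex I, SDHA to SDHD for complex II, UQCR symbols and CYC1 for complex III, CYCS for cytochrome c, COX4I to COX8 for complex IV, and ATP5 symbols for complex V. The rule found 84 of 19775 genes, on 161 of 54613 probe sets. Of these, 79 code for protein and 5 do not: the long noncoding RNAs NDUFB2-AS1, NDUFV1-DT and NDUFV2-AS1 and the pseudogenes ATP5MC2P1 and COX6A1P1. Another 11 coding genes whose symbols match the rule had no probe set of their own and were not analysed here, among them SDHB, UQCRFS1 and UQCRH.

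The respiratory chain passes electrons from NADH (complex I) and succinate (complex II) through ubiquinone to complex III, and from there through cytochrome c to complex IV, where oxygen is reduced. Complexes I, III and IV pump protons across the inner mitochondrial membrane, and complex V, the ATP synthase, uses the return flow to make ATP. Many of the electron carriers are iron-sulfur clusters or hemes. Complex II is encoded wholly in the nucleus, while the other complexes join nuclear subunits with a few made from mitochondrial DNA.

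Expression was measured on arrays in 2 samples labelled HL60, an established promyelocytic leukaemia line. One sample was untreated. The other received eltrombopag, a thrombopoietin receptor agonist that also binds iron, at 3 µg/ml for 36 h, and the stated question was which genes differ with treatment. The labels describe growth in RPMI with 10% FBS, and give neither a culture time nor a vehicle for the untreated cells. Each group is 1 array, so every difference below is between 2 arrays, has no replicate check and no test, and treatment and culture cannot be told apart. Values are MAS5 signals, a brightness per probe set on a linear scale, and log2 ratios are eltrombopag over untreated. Each gene is represented by its brightest probe set unless others are named. A gene is called measured where that probe set reached a floor of 56.9 in at least 1 sample. This held for 10314 genes. Their median log2 ratio was -0.12, so a ratio is also set against that median where it matters.

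The labelled cell type was checked with marker lists. Of 13 promyelocyte and HL60 genes on the array, 10 lay above the floor in both samples, with a summed signal of 16784 untreated and 17194 with eltrombopag. SRGN, at 7160 and 7685, and MYB, at 4349 and 5855, made up most of that sum. MPO read 1556 and 1467, while CEBPA, CSF3R, CTSG and RNASE2 had ratios of -1.55, -1.17, -0.84 and -0.76. ELANE, SPI1 and LYZ lay below the floor in both samples. The labels also name a hematopoietic stem cell type, but 7 of 9 such genes on the array, CD34, PROM1 and KIT among them, were below the floor in both. Of the others, MECOM read 79.5 untreated and 107.6 with eltrombopag, and MEIS1 52.4 and 57.7. Of 14 plasma cell genes, 10 were above the floor in both samples, with a summed signal of 17811 untreated and 10902 with eltrombopag, while IGHG1, IGKC, CD27 and FCRL5 were below it. The markers thus do not settle that the cells are as labelled. The plasma cell list, CEBPA, CSF3R, CTSG and RNASE2 were lower along with the respiratory genes described next, and their part in that difference was not tested. Of the B cell, T and NK cell, erythroid and monocyte lists, at most 3 genes each reached the floor in the untreated sample.

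Respiratory chain and ATP synthase genes were lower in the eltrombopag sample in nearly every case, and by small amounts. Of the 79 coding genes, 72 were measured, each above the floor in both samples, and 67 of the 72 had a log2 ratio below 0, against 63.4% of all measured genes. Set against the median of all measured genes, 62 of 72 lay below it and 10 above. The median log2 ratio was -0.35, with quartiles of -0.55 and -0.19, while the quartiles over all measured genes were -0.37 and 0.11. At least 1.5-fold lower were 16 of 72 members, or 22.2%, against a background of 11.8%, and 0 were at least 1.5-fold higher, against 3.49%. Only NDUFA7 passed 2-fold, 1 of 72 beside 2.27% of all genes in that direction, and 0 members were 2-fold higher, beside 0.65%. Under quantile normalization 63 of 72 members and 51.4% of all genes lay below 0, and 62 of 72 members lay below the median of all genes.

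**Figure D1:**
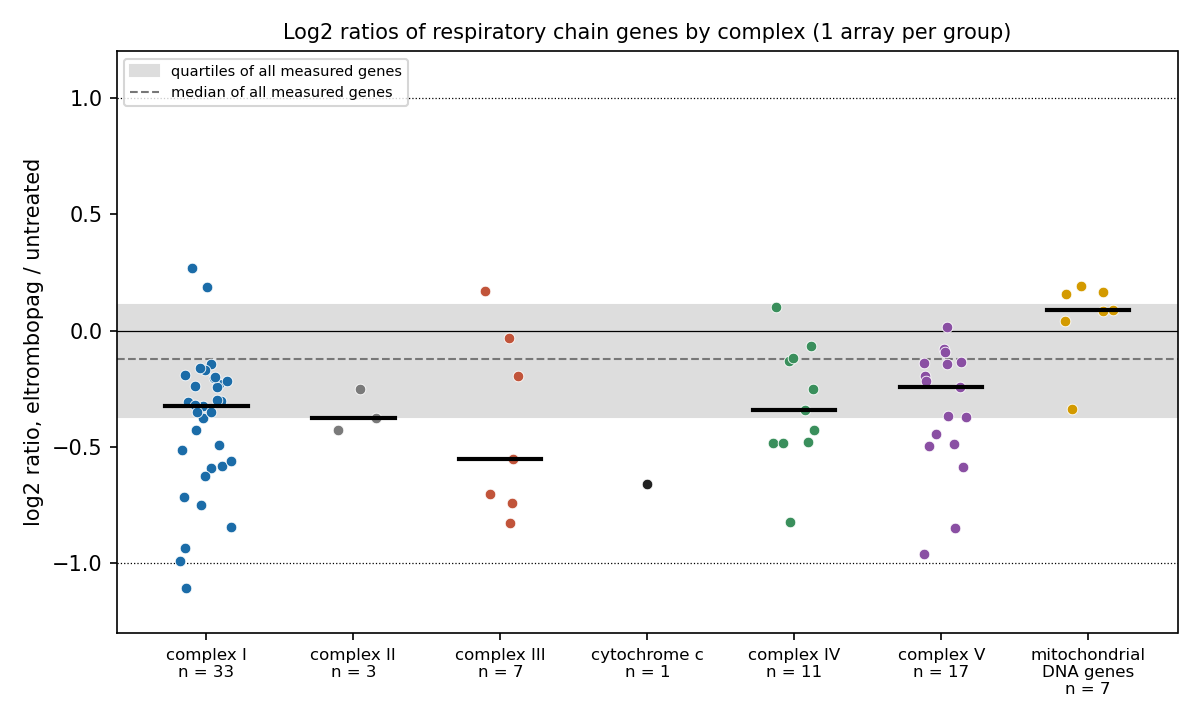
Log2 ratio of eltrombopag over untreated for each measured coding gene, by complex, with 1 point per gene and a black bar at the median; the grey band holds the quartiles of all 10314 measured genes, the dashed line is their median and dotted lines mark a 2-fold change. Medians of complexes I to V lie between -0.55 and -0.24, below the dashed line at -0.12, while 6 of 7 genes of mitochondrial DNA lie above 0.

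The complexes overlapped widely. The median log2 ratio was -0.32 for 33 complex I genes, -0.38 for 3 of complex II, -0.55 for 7 of complex III, -0.34 for 11 of complex IV and -0.24 for 17 of complex V. All of these medians lay below that of all measured genes, by 0.12 for complex V at the least. The order of the complexes changed with the choice of probe sets. Probe sets whose names end in _x_at or _s_at can match other transcripts as well. With these left out, the 7 complex III genes had a median of -0.28 and the 22 complex I genes left had -0.31. Some probe sets then used were dim. That of UQCR11 read 82.5 untreated and 74.6 with eltrombopag, and that of UQCR10 90.3 and 69.9, near the floor of 56.9. Members at least 1.5-fold lower numbered 8 of 33 in complex I (24.2%), 0 of 3 in complex II, 3 of 7 in complex III (42.9%), 1 of 11 in complex IV (9.09%) and 3 of 17 in complex V (17.6%), with cytochrome c as the remaining 1. Against the background of 11.8%, the share in complex IV was no higher and that in complex V little higher.

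Within complex I, the catalytic core stood nearer to the rest of the genome than the accessory subunits did. Of 7 nuclear core subunits listed, 5 were measured. These carry the flavin, the iron-sulfur clusters or their scaffold, and had ratios from -0.30 to -0.14 and a median of -0.17. NDUFV1, which binds NADH and the flavin, went from a signal of 1878 untreated to 1679 with eltrombopag. NDUFV2, an iron-sulfur subunit beside it, read 2486 and 2181. Their ratios were -0.16 and -0.19. NDUFS1, the largest iron-sulfur subunit, read 565 and 512, a ratio of -0.14. Its other probe sets above the floor gave -0.53, -0.28 and 0.41, so its direction is not settled. NDUFS3 had a ratio of -0.17 and NDUFS7, the subunit that hands electrons towards ubiquinone, -0.30. The 28 other complex I genes had a median of -0.36, and 8 of them, 28.6%, were 1.5-fold lower. In the core 0 of 5 were, beside 11.8% of all measured genes, and 5 genes are too few to compare shares.

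Going by the brightest probe set of each gene, the lowest of these accessory genes was NDUFA7, at 575 untreated and 267 with eltrombopag, 2.15-fold lower. It rests on 1 probe set, since its other lay below the floor, and its ratio was within 2-fold after quantile normalization and lowess. NDUFB6, of the membrane arm, read 492 and 248, or 1.99-fold lower. NDUFA13, also known as GRIM-19, read 688 and 360, a ratio of -0.93. By brightest probe set, these 3 were the lowest of the 33 complex I genes. A dimmer NDUFA11 probe set gave -1.33. NDUFB7 had a ratio of -0.85, NDUFA8 of -0.75, NDUFA1 of -0.72, NDUFA3 of -0.63 and NDUFA12 of -0.59. Of the 13 NDUFA genes 6 were 1.5-fold lower, 46.2%, and of the 11 NDUFB genes 2 were, 18.2%. The share over all measured genes was 11.8%. The NDUFA median was -0.58, the NDUFB median -0.35. These figures use the brightest probe set of each gene, and dimmer NDUFB probe sets went both ways. Those of NDUFB8 gave -1.42 and 0.12, and those of NDUFB2 -0.605 and 0.26. NDUFB10 had -1.18, NDUFB1 0.19 and NDUFB4 0.20.

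NDUFA10 and NDUFA9 went the other way. NDUFA10 read 1117 untreated and 1345 with eltrombopag, a ratio of 0.27, and NDUFA9, which lies near the ubiquinone site, 632 and 720, a ratio of 0.19. Both were above 0 under every alternative that was run. The brighter complex I genes lay between these ends. NDUFB5 read 3492 and 2961, NDUFS6 read 2998 and 2100, and NDUFB4 read 2928 and 2478, ratios of -0.24, -0.51 and -0.24. A dimmer NDUFB4 probe set gave 0.20. NDUFAB1, the mitochondrial acyl carrier protein, had a ratio of -0.38. NDUFA2, NDUFA5, NDUFA6, NDUFB1, NDUFB2, NDUFB3, NDUFB9, NDUFB11, NDUFC1, NDUFS4 and NDUFV3 had ratios between -0.56 and -0.20. Dimmer probe sets gave 0.19 for NDUFB1, 0.01 for NDUFA5 and 0.00 for NDUFS4. NDUFB2-AS1, a noncoding member, had a ratio of -0.04, and NDUFV1-DT and NDUFV2-AS1 lay below the floor, as did COX6A1P1 of complex IV.

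Complex II, which oxidises succinate and is also an enzyme of the citric acid cycle, was lower in each of its 3 measured subunits. SDHA, the flavoprotein, read 1455 untreated and 1122 with eltrombopag, a ratio of -0.38. SDHC, which with SDHD anchors the enzyme and holds its heme, read 1670 and 1241, a ratio of -0.43. All 7 SDHC probe sets passed the floor in each sample, and all 7 were lower, with ratios from -1.02 to -0.28. SDHD read 1269 and 1068, a ratio of -0.25. None of the 3 reached 1.5-fold in its brightest probe set. The mean over the SDHC probe sets was -0.61, which is past 1.5-fold lower.

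Complex III ranged from -0.83 to 0.17, with UQCRQ, UQCR11 and CYC1 past 1.5-fold lower. UQCRQ, a small membrane subunit, read 1736 untreated and 978 with eltrombopag, 1.77-fold lower. UQCR11 read 1702 and 1017, a ratio of -0.74, and -0.15 in a dimmer probe set. UQCR10 had a ratio of -0.55. CYC1, cytochrome c1, which passes electrons to cytochrome c, read 568 and 349, or 1.63-fold lower. UQCRC1 and UQCRC2, the core proteins on the matrix side, had ratios of -0.20 and -0.03, and the dimmer probe sets of UQCRC2 gave -0.28 and 0.09. UQCRB, a small subunit that binds ubiquinone, was the 1 higher member, at 4168 and 4694, with ratios of 0.17, 0.07 and 0.03 in its 3 probe sets above the floor.

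CYCS, cytochrome c, which ferries electrons between complexes III and IV and triggers apoptosome assembly when released, read 3681 untreated and 2332 with eltrombopag, 1.58-fold lower. Its 2 dimmer probe sets disagreed, at 240 and 292 for the brighter of them, a ratio of 0.28, and 71.0 and 61.2 for the other, a ratio of -0.21. The mean over the 3 was -0.20.

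In complex IV, COX5A was the 1 gene past 1.5-fold in its brightest probe set. COX5A, a nuclear subunit on the matrix side, read 1654 untreated and 935 with eltrombopag, 1.77-fold lower; its second probe set lay at the floor, at 57.6 and 29.5. COX5B, which binds zinc, read 2820 and 2021, a ratio of -0.48, and its 3 further probe sets were lower too, between -0.86 and -0.24. COX6B1, COX8A and COX6A1 had ratios of -0.48, -0.48 and -0.43, and COX7C and COX6C of -0.34 and -0.25. The dimmer COX7C probe sets gave -0.45 and -0.86, the latter at 1293 untreated and 710 with eltrombopag, past 1.5-fold lower. COX4I1, the regulatory subunit that binds ATP, stayed close to its untreated level, at 2922 and 2794, a ratio of -0.06. COX7A2 and COX7A2L, a relative that links complexes III and IV, had ratios of -0.13 and -0.12, at the median of all genes. COX7B read 3033 and 3251, a ratio of 0.10, and 0.09 in its second probe set.

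The tissue-specific or alternative isoforms of complex IV were not measurable in either sample. COX4I2, COX6A2, COX6B2, COX7A1, COX7B2 and COX8C lay below the floor in both, while their common counterparts COX4I1, COX6A1, COX6B1, COX7A2, COX7B and COX8A lay far above it. COX4I2, the isoform that cells make more of at low oxygen, read 16.6 untreated and 48.7 with eltrombopag, both below the floor of 56.9, so no fold is given. COXFA4, the current symbol of NDUFA4, a complex IV subunit that the symbol rule does not take, read 1920 and 1644, a ratio of -0.22. COXFA4L2, formerly NDUFA4L2 and a hypoxia-inducible relative, read 30.9 and 36.8, both below the floor.

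In complex V the genes for the c ring had a lower median ratio, -0.85, than the 14 other measured genes, -0.21, and ATP5MC1 and ATP5MC3 were the lowest of all 17. The ring turns in the membrane as protons pass, and 3 genes, ATP5MC1, ATP5MC2 and ATP5MC3, encode the same mature c subunit behind different import sequences. ATP5MC1 read 1126 untreated and 579 with eltrombopag, 1.95-fold lower, and 2.8% of all measured genes had a ratio as low or lower. ATP5MC3 read 3321 and 1842, 1.80-fold lower, with -0.93 and -0.40 in its dimmer probe sets. ATP5MC2 read 3543 and 2531, 1.40-fold lower. The same order held after median centring, quantile normalization and lowess, with ATP5MC1 between -0.90 and -0.88 and ATP5MC2 between -0.43 and -0.38. The probe sets used for these genes have names ending in _s_at, and ATP5MC2P1, a pseudogene of the family, had a ratio of -0.56, so shared signal was not separated.

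In most of the catalytic head, the stalks and the membrane accessory subunits, ratios were closer to the median of all genes than in the c ring; ATP5MG and ATP5F1B were as low as ATP5MC2. In the head, ATP5F1A, the alpha subunit, read 5955 untreated and 5427 with eltrombopag, a ratio of -0.13, while ATP5F1B, the catalytic beta subunit, read 1700 and 1207, a ratio of -0.49. ATP5F1D had a ratio of -0.45 and ATP5F1E, the epsilon subunit, of -0.14. For ATP5F1C, the gamma subunit of the rotor, the 4 probe sets gave -0.08, -0.36, -0.58 and 0.51, so no direction is settled. Of the peripheral stalk, ATP5PD and ATP5PF had ratios of -0.37 and ATP5PB of -0.14, though a dim ATP5PD probe set gave 0.01, and ATP5PO, which joins the stalk to the head, gave 0.01 and -0.59 in probe sets of similar brightness. Among the membrane subunits, ATP5MG read 3089 and 2058, a ratio of -0.59, with all 4 of its probe sets below 0, whereas ATP5ME had a ratio of -0.09, ATP5MJ of -0.22 and ATP5MK of -0.24. ATP5IF1, the inhibitor that stops the enzyme from running backwards, had a ratio of -0.19. ATP5MF lay below the floor in both samples.

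**Figure D2:**
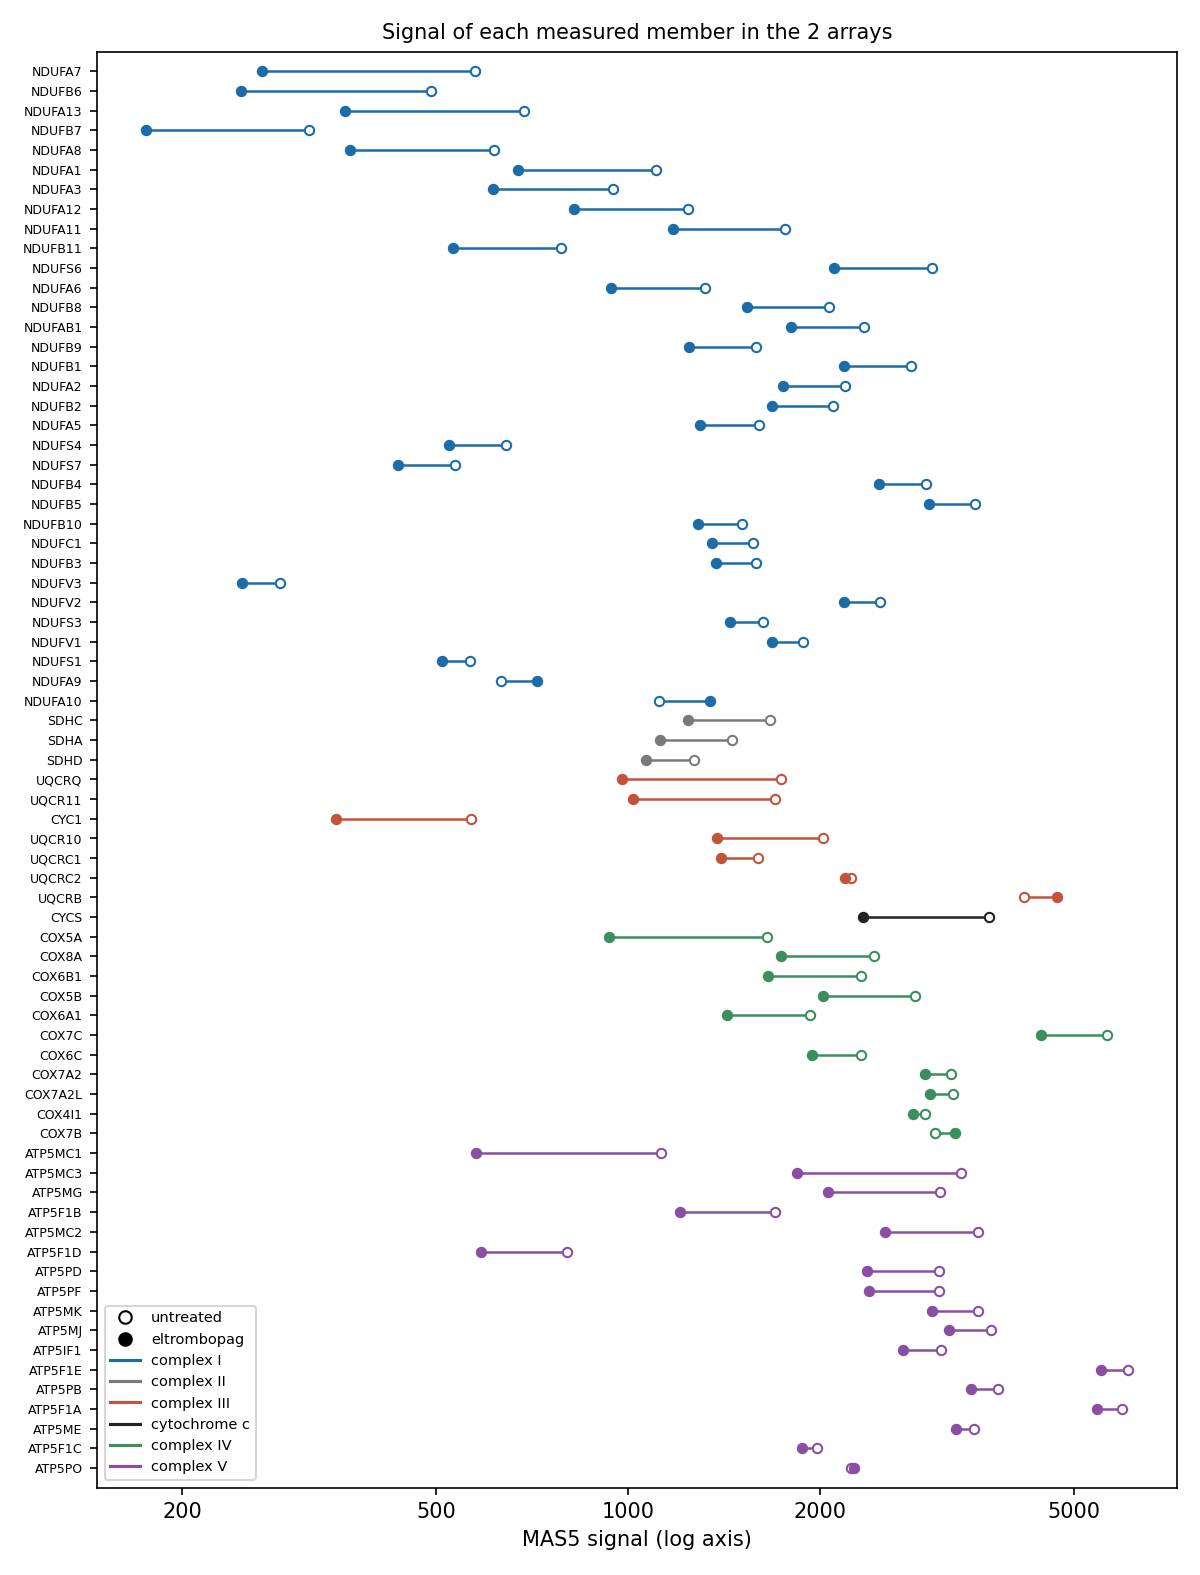
MAS5 signal on a log axis of the 72 measured coding members in the untreated sample (open circles) and the eltrombopag sample (filled circles), grouped by complex and ordered by ratio within it. Filled circles lie to the left in 67 genes, and to the right in NDUFA9, NDUFA10, UQCRB, COX7B and ATP5PO.

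The measured members that carry iron did not have a lower median ratio than all measured members. The list held 11 genes whose proteins hold an iron-sulfur cluster or a heme, and 8 were measured: NDUFV1, NDUFV2, NDUFS1, NDUFS7, SDHC, SDHD, CYC1 and CYCS. The iron-sulfur members among them were all of the complex I core described above, and SDHB and UQCRFS1 had no probe set of their own. A part of iron in these differences was not tested. All 8 had ratios below 0, as 67 of all 72 members did. Their median was -0.27, beside -0.35 for the 72. Of the 8, CYC1 and CYCS were 1.5-fold lower, beside 22.2% of the 72 members and 11.8% of all measured genes. These 8 genes are too few to compare shares. For CYCS this holds in its brightest probe set only, since the dimmer ones gave 0.28 and -0.21.

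Genes of mitochondrial DNA, which supply further subunits of complexes I, III, IV and V and are not members by the rule, were not lower as the nuclear genes were. Of 13 such protein genes, 7 had a probe set of their own. COX1, the catalytic subunit of complex IV, read 12080 untreated and 13542 with eltrombopag, a ratio of 0.16. ND2 and ND4, of complex I, had ratios of 0.19 and 0.16, and ATP6, the subunit of complex V against which the c ring turns, of 0.09. COX2 and COX3 had ratios of 0.08 and 0.04. ND6, the 1 protein gene on the other strand of that genome, read 682 and 539, a ratio of -0.34. The median of the 7 was 0.09, beside -0.35 for the 72 nuclear members, and 6 of the 7 were above 0, or 5 of 7 after quantile normalization. These genes are cut from shared long transcripts, so they are not separate measurements, and 5 of them lay near the top of the brightness range.

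The genes that build and regulate the complexes were more mixed than the subunits. Of 16 measured complex I assembly factors, 11 were below 0, 5 were 1.5-fold lower and 0 were 1.5-fold higher, with a median of -0.25. The share below 0, 68.8%, was near the 63.4% of all measured genes, while the share 1.5-fold lower, 31.2%, was above the background of 11.8%. The background for 1.5-fold higher was 3.49%. NDUFAF3 read 370 untreated and 168 with eltrombopag, a ratio of -1.14, while NUBPL, which delivers iron-sulfur clusters to complex I, had -0.90, ACAD9 -0.72 and TMEM126B -0.70. On the higher side, NDUFAF5 had 0.53 and NDUFAF4 0.33. Of 35 measured assembly factors of complexes II to V, 28 were below 0, 5 were 1.5-fold lower and 1 was 1.5-fold higher, with a median of -0.23. The share 1.5-fold lower, 14.3%, was near the background of 11.8%, and the share below 0 was 80.0%, beside 63.4% of all measured genes. Of all measured genes, 3.49% were 1.5-fold higher. The 1 higher gene was UQCC1, which helps build cytochrome b into complex III: it read 827 and 1562, a ratio of 0.92, and was higher in its other probe sets too, at 0.77 and 0.31. TMEM70 and ATPAF1, which assemble ATP synthase, had ratios of -0.87 and -0.61, and COA3, of complex IV, -0.64.

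Regulators of respiratory genes were not lower as a list. Of 14 measured, 7 were above 0 and 7 below, while 63.4% of all measured genes were below 0. Against the median of all measured genes, 10 lay above it and 4 below. At least 1.5-fold lower were 0, beside 11.8% of all, and 1.5-fold higher was 1, POLRMT, beside 3.49%. The median of the list was 0.00. POLRMT, the RNA polymerase of mitochondria, read 320 untreated and 504 with eltrombopag, a ratio of 0.66 from 1 probe set. POLG, the mitochondrial DNA polymerase, and PPRC1, a coactivator, had ratios of 0.34 and 0.24. NRF1, nuclear respiratory factor 1, read 197 and 151, a ratio of -0.39, with -0.24 and -0.04 in dimmer probe sets. GABPA and YY1, which encode the DNA-binding part of GABP and the factor YY1, both had ratios of -0.10. PPARGC1A, which encodes the coactivator PGC-1α, lay below the floor in both samples. Of 12 measured citric acid cycle enzymes, 10 were below 0, beside 63.4% of all measured genes, and 0 were 1.5-fold lower, beside 11.8%. Their median was -0.30. IDH3A, MDH2, IDH3B and DLD had ratios of -0.58, -0.56, -0.51 and -0.50.

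Because so many members were lower together, their promoters were searched for letters of factors long tied to respiratory genes. The RefSeq table (GRCh38.p14), which spans 250 bases before to 50 after each start, held 67 of the 79 coding members. The NRF1 core CGCATGCG was found in 11 of 67 member promoters, 16.4%, beside 3.28% of 15843 protein-coding genes. The YY1 letters AAGATGGC were in 16.4% of members and 4.66% of all, the ETS letters CCGGAAG, bound by the GABP factor among others, in 28.4% and 16.5%, and the TATA box letters TATAAA in 10.4% and 12.4%. Both strands were read, a gene counted once over all its listed starts, and in member promoters 0 matches of different motifs overlapped. The stretches below show the NRF1 core, in capitals, 5′ to 3′ along the gene, with its surroundings in a member of each of complexes I, II, IV and V:
NDUFS7, chr19:1383813-1383860, plus strand: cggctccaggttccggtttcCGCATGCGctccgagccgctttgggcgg
NDUFS6, chr5:1801342-1801389, plus strand: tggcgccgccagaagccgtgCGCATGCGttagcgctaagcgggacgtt
SDHD, chr11:112086744-112086791, plus strand: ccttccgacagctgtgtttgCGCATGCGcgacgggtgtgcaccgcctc
COX6A1, chr12:120437874-120437921, plus strand: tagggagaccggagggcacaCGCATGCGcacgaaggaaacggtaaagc
ATP5MC2, chr12:53676097-53676144, minus strand: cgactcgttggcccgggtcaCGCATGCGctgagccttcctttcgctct

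None of the complex III promoters read held that core, and the complex is shown by the ETS letters in its lowest member, with NDUFA13 and NDUFB7 of complex I beside it, in capitals as they occur on the gene's own strand:
UQCRQ, chr5:132866568-132866614, plus strand: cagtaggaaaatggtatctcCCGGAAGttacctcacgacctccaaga
NDUFA13, chr19:19516195-19516224, plus strand: taagtcacttccgcccgggaCCGGAAGtgt
NDUFB7, chr19:14572067-14572110, minus strand: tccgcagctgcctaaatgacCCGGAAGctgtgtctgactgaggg

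The size of a member's difference did not follow the NRF1 letters. The 11 measured members with the core had a median log2 ratio of -0.31 and the 52 without it -0.33. For the YY1 letters the medians were -0.30 in 11 members and -0.33 in 52, and for the ETS letters -0.43 in 19 and -0.30 in 44. The 19 members with the ETS letters ranged from -0.93 in NDUFA13 to -0.06 in COX4I1. The ETS stretches shown above came from the lowest of them. For the TATA box letters they were -0.18 in 6 and -0.34 in 57. These are matches of letters, not sites of binding.

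Probe sets of 1 gene give the only repeat measure within these arrays. For the 2 brightest probe sets of 29 members with at least 2 that passed the floor in each, the SD of a single ratio was 0.31, beside 0.26 over 4374 genes, and 22 of 29 pairs had the same sign. The widest gaps were in NDUFB8, at -0.43 and -1.42, NDUFB10, at -0.23 and -1.18, CYCS, described above, and NDUFA11, at -0.58 and -1.33. In these 3 complex I genes both probe sets were lower, and the dimmer one by more than 2-fold, though the dimmest NDUFB8 probe set gave 0.12. The closest pairs were those of COX7B, at 0.10 and 0.09, and ATP5MG, at -0.59 and -0.61. Ratios of single members that are smaller than this spread are not firm.

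**Figure D3:**
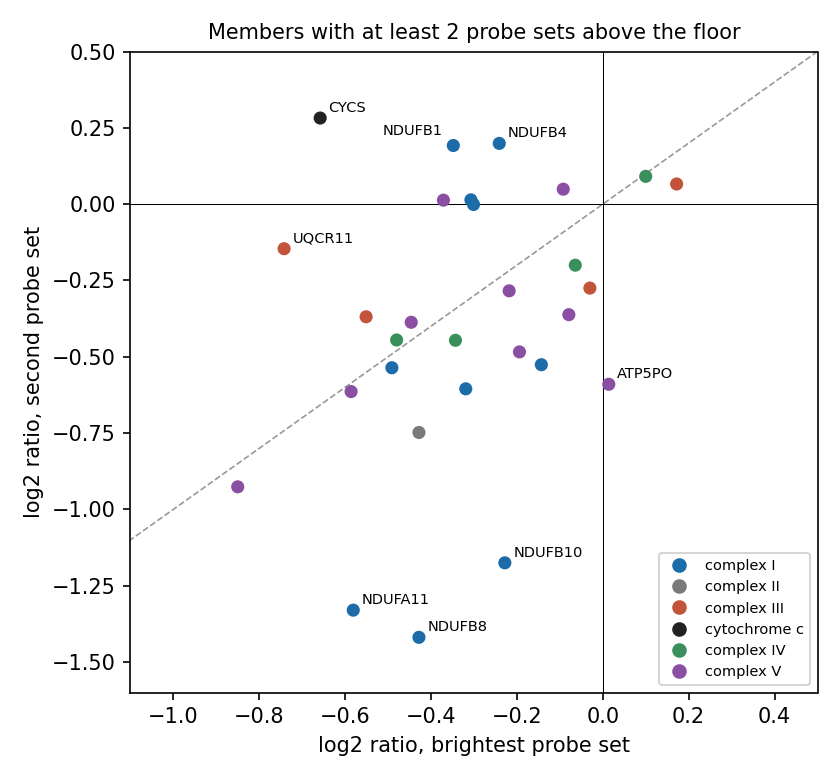
Log2 ratio of the second brightest probe set against that of the brightest, for the 29 members with at least 2 probe sets that passed the floor in each sample, coloured by complex, with the line of equality dashed. Most points lie below 0 on both axes, and the 8 widest gaps are labelled, NDUFB8 the widest at -0.43 and -1.42.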

How the data were processed

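The deposited table holds 1 signal intensity per probe set for each of 2 samples, on a linear scale. Per the submitters' processing notes the authors made these intensities with MAS5, which corrects background and summarises probes within each array; the version and the scaling target were not given in the sources used here. Low MAS5 signals carry large relative error, and having 1 array in each group limits precision. Genes were named by the platform's annotation, with 1 gene symbol for 41091 probe sets, several for 1801 and none listed for 11721; updating by gene identifier to GRCh38.p14 changed 0 symbols.

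Values were used as deposited. Signals below the 60th percentile of both samples pooled were raised to it before log2, and each gene took its probe set of highest mean log2 signal. Genes were counted at 2-fold and 1.5-fold. No p-value was computed. Named genes were all members of complex II, CYC1, CYCS, the lists of iron carriers, c-ring and isoform genes, members past 1.5-fold, the 3 largest ratios in each direction and 3 brightest of each larger complex, the 2 of complexes I and V nearest 0, and up to 4 genes of each further list. Any other gene named was chosen after its values were seen. Members and lists were chosen with earlier results of these data known. Alternatives were 3 scalings, 3 floors, the mean over probe sets and leaving out probe sets whose names end in _x_at or _s_at. The computation was tested on simulated data. Python 3.11.15, pandas 2.3.3 and statsmodels 0.14.6 were used.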

Additional observations from a re-analysis of the deposited data

How the results depend on the processing

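Over 8 alternatives, the median log2 ratio of all members lay between -0.35 and -0.25. The medians ranged from -0.35 to -0.23 in complex I, -0.38 to -0.26 in complex II, -0.55 to -0.28 in complex III, -0.42 to -0.18 in complex IV and -0.29 to -0.14 in complex V. The widest move was in complex III, to -0.28 when probe sets with names ending in _x_at or _s_at were left out. That omission left 52 measured members, of which 43 were below 0, 40 were below the median of all genes and 2 were 2-fold lower. Of all genes under it, 64.3% were below 0 and 2.35% were 2-fold lower. The median of the members minus that of all genes was then -0.145, beside -0.225 for the values as deposited. Members 2-fold lower were 0 after quantile normalization, 0 after lowess and 2 with no floor, beside 1.29%, 1.29% and 6.7% of all genes. Members 2-fold higher were 1 with no floor, and members 1.5-fold higher were 1 at a floor set to the 50th percentile and 3 without one, which brings in genes of very low signal. The shares of all genes that were higher under these floors were not computed, so these counts have no background beside them. Members 1.5-fold lower numbered 12 to 17, of 52 to 79 measured. After quantile normalization they were 12 of 72, beside 7.5% of all genes. With no floor they were 17 of 79, beside 16.9% of all genes. Of 556 single-member values, 19 moved by more than 0.26, the SD between probe sets, and 0 counted as reversed, which only a member past 1.5-fold can. Of 72 members, 60 were below 0 in each setting that gave a value and 4 above it: NDUFA9, NDUFA10, COX7B and UQCRB. NDUFA9 and NDUFA10 have 1 measured probe set each, so only the scalings could change their ratios. Adding COXFA4 to complex IV, chosen after seeing the data, gave -0.30. The planned move of NDUFA4 to complex I was not run, because the annotation names it COXFA4. No paired analysis was possible because each group holds 1 sample.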

Other observations

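Position in the genome is one property the symbol rule did not use. The members on chromosome 19 were chosen for description after their values were seen. Of 11 coding members there, 9 were measured: NDUFA3, NDUFA7, NDUFA11, NDUFA13, NDUFB7, NDUFS7, UQCR11, COX6B1 and ATP5F1D. All 9 lay below the median of all measured genes, with ratios from -1.11 to -0.30 and a median of -0.63, and 5 of the 9 were 1.5-fold lower. The 63 members on other chromosomes had a median of -0.31, and 11 of them were 1.5-fold lower. The 682 measured genes of chromosome 19 as a whole had a median of -0.09, close to the -0.12 of all measured genes, and 9.24% of them were 1.5-fold lower, beside 11.8% of all. The 9 members had a median untreated signal of 801, beside 2099 for the other 63.

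Across the 72 measured members, the log2 ratio rose with the mean log2 signal (Spearman's rho = 0.46), and across all 10314 measured genes it hardly did (rho = 0.08). With the genomic length of the gene, rho was 0.26 over the members and 0.12 over 10306 genes. These figures are across genes of the same 2 arrays, which are not independent replicates.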
